A study of Gallus gallus with 403 samples.

Results

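Among arrays of chicken lung (Gallus gallus), a set of 4 arrays carried a high signal in 6 probe sets without a gene symbol and a strong interferon response. The 4 other arrays of the same labelled ages lacked that signal and had much lower levels of interferon response genes. On 1 of them, day 7 replicate 4, these levels were somewhat above those of the lung arrays of days 14 and 21. The arrays were chosen by the measured signal of these 6 probe sets. The high-signal arrays were replicates 2 and 3 at day 7 and replicates 2 and 3 at day 28. The low-signal arrays were replicates 1 and 4 at day 7 and replicates 1 and 4 at day 28. These 8 arrays were compared with age as a block, out of 28 lung arrays and 403 arrays of chicken tissues in all. The other lung arrays were labelled day 1, day 14, day 21, day 35 and day 42, with 4 arrays each. Total RNA of whole lung was hybridised to the Affymetrix Chicken Genome array, a chip of short probes grouped into probe sets. No treatment, infection, strain or housing is given in the labels, and the event from which days were counted is not stated. At each age 2 arrays were labelled male (replicates 1 and 2) and 2 female (replicates 3 and 4), so each class held 1 of each labelled sex at each age. The labels do not say that replicates were separate birds.

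Interferons are secreted proteins that cells make after their sensors detect foreign nucleic acid. They bind receptors on the same and on neighbouring cells and, through JAK kinases and STAT factors, switch on a large set of effector genes that block steps of viral growth, raise antigen presentation and recruit leukocytes. Feedback inhibitors of the SOCS family limit the signal. In the bird lung, gas exchange takes place along fixed tubes, the parabronchi, where a thin surfactant-producing epithelium lies against a dense bed of capillaries. Lymphoid tissue sits at the larger airways.

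Since a measured signal chose the arrays, the high minus low difference is a description and carries no test. Values are log2 intensities, so that a difference of 1 is a 2-fold change. The median of the 6 probe sets was 7.52 and 11.2 on the high-signal arrays of day 7 (replicates 2 and 3) and 9.39 and 11.4 on those of day 28. On the low-signal arrays it lay between 5.22 and 5.36, and on the 8 arrays of days 14 and 21 between 5.04 and 5.33. The array just inside the choice was thus day 7 replicate 2 at 7.52, and the one just outside was day 7 replicate 4 at 5.36. The 6 probe sets differed by 2.61 to 6.65 between the classes. Among probe sets without a symbol that share their type of name, the next differed by 1.76. Other probe sets without a symbol were not ranked. Day 35, which the choice did not use, held 4 arrays with medians between 8.35 and 11.5. Day 42 held 4 arrays between 4.70 and 5.54.

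Array medians over all probe sets were even, from 6.14 to 6.17 on the 8 arrays. Array-to-array correlations over genes were 0.965 to 0.986 among high-signal arrays, 0.981 to 0.987 among low-signal arrays and 0.925 to 0.972 between the classes. Low-signal arrays correlated with the arrays of days 14 and 21 at 0.975 to 0.988, and high-signal arrays at 0.914 to 0.961. One marker went against the labels. HINTW, a gene of the W chromosome that hens carry and cocks lack, read 13.7 on day 7 replicate 1 (labelled male) and 13.8 on day 28 replicate 4 (labelled female), both low-signal arrays. It read 6.24 to 7.47 on the other 6, among them all 4 high-signal arrays and day 7 replicate 4, which is labelled female. The labelled sexes are therefore not relied on, and counts are also given without these 2 arrays. In the 12 arrays of days 1, 35 and 42 the free descriptions name duodenum and other ages, whereas titles and source names give lung and the ages used here. SFTPA1, which encodes a surfactant protein of the lung lining, read 12.8 to 14.1 at day 35 and 12.45 to 14.1 at day 42.

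A gene was counted as set apart when the classes differed by at least 1 on the log2 scale and did not overlap at day 7 or at day 28, in the same direction. Of 11846 genes measured, 284 (2.4%) were set apart with higher and 57 (0.481%) with lower levels on the high-signal arrays, 341 (2.88%) in either direction. Without the 2 arrays of high HINTW the counts were 291 and 80. That left 1 low-signal array at each age, where no overlap is easier to reach, so these counts are not like for like with 284 and 57. With no requirement on size, 1218 genes (10.3%) were higher and 2078 (17.5%) lower without overlap at both ages, so that small differences ran mostly downward and large ones mostly upward. The differences at day 7 and day 28, taken from separate arrays, correlated across genes at r = 0.802 (Spearman's rank correlation 0.671, 11846 genes, which are not independent replicates). Comparing replicate 3 alone with the low-signal arrays set apart 469 genes as higher and 211 as lower, while replicate 2 alone set apart 210 and 55. With 1 high-signal array per age no overlap is easier to reach than with 2. These counts can thus be set beside each other but not directly against 284 and 57.

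The labelled ages gave 2 comparisons whose groups were set by the labels rather than by the measured signal. Between day 28 and day 7, with the class as a block, limma called no gene of 11846 (0%) at an adjusted p under 0.05 and a 2-fold difference. The smallest adjusted p was 0.58. An unadjusted p under 0.05 was reached by 537 genes, fewer than the share of 0.05 that arises when no gene differs. Between day 35 and day 42 (4 against 4, in a fit with day 1 over 12 arrays that the choice did not use), 234 of 12492 genes (1.87%) were called higher at day 35 and 101 (0.809%) lower. Age and whatever else set these arrays apart cannot be told apart in this comparison, which stands beside the chosen arrays as a second set of values for the same genes. The 6 probe sets behind the choice split these ages too. Their array medians were 8.35 to 11.5 at day 35 and 4.70 to 5.54 at day 42. HINTW was also lower at day 35, at 4.31 to 6.24, against 12.99, 13.1, 13.1 and 6.89 at day 42.

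Interferon-stimulated effectors, the proteins that carry out the antiviral response, were the gene list with the most members set apart. As higher, 29 of 39 measured were set apart, against 2.4% of all genes. The list's median difference was 2.10, with 1.93 at day 7 and 2.20 at day 28, against −0.04 over all genes. IFIT5, a protein that binds foreign RNA and represents the IFIT family in chickens, read 14.0 and 14.1 at day 7 and 14.1 and 14.3 at day 28 on the high-signal arrays. On the low-signal arrays it read 9.88 and 11.6 at day 7 and 10.6 and 10.98 at day 28. The classes did not overlap and differed by 3.36 ± 0.31 (SE, 4 against 4 arrays). The low-signal arrays were at or above most arrays of days 14 and 21, which lay between 8.32 and 11.4.

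RSAD2 (viperin), which makes a nucleotide that stops viral polymerases, read 11.2, 11.5, 10.5 and 11.5 on the high-signal arrays, given here and below as day 7 replicates 2 and 3, then day 28 replicates 2 and 3. It read 6.03, 7.48, 6.61 and 7.26 on the low-signal arrays, given as day 7 replicates 1 and 4, then day 28 replicates 1 and 4, a difference of 4.34 ± 0.35. No low-signal array came near the high ones. MX1, a GTPase that traps viral components, read 12.5, 13.2, 13.0 and 13.3 against 9.88, 11.2, 10.2 and 9.89, with day 7 replicate 4 the highest of the low-signal arrays. OASL, of the family that senses double-stranded RNA, read 12.1, 12.4, 12.7 and 12.4 against 7.69, 9.60, 8.62 and 9.03. In OASL, too, day 7 replicate 4 was highest within its class.

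EIF2AK2 (PKR), the kinase that stops translation on double-stranded RNA, differed by 2.68 ± 0.21, and ZC3HAV1 (ZAP), which marks viral RNA for decay, by 2.63 ± 0.21. GBP, a guanylate-binding GTPase, differed by 3.06 ± 0.22, and SAMD9L, a translation inhibitor, by 2.98 ± 0.29, but by 1.63 and 1.71 when all probe sets of each gene were averaged. CMPK2, a nucleotide kinase encoded beside RSAD2, differed by 2.77. All of these were set apart, as were members of the PARP family, among them PARP9, PARP12 and PARP14, which differed by 2.25, 1.91 and 1.77. The 10 members not set apart included DDX60 at 2.28, whose value of 7.43 on day 7 replicate 2 equalled that of low-signal day 7 replicate 4. LY6E and NT5C3A differed by 0.58 each, and UBA7 by 0.00.

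**Figure D1:**
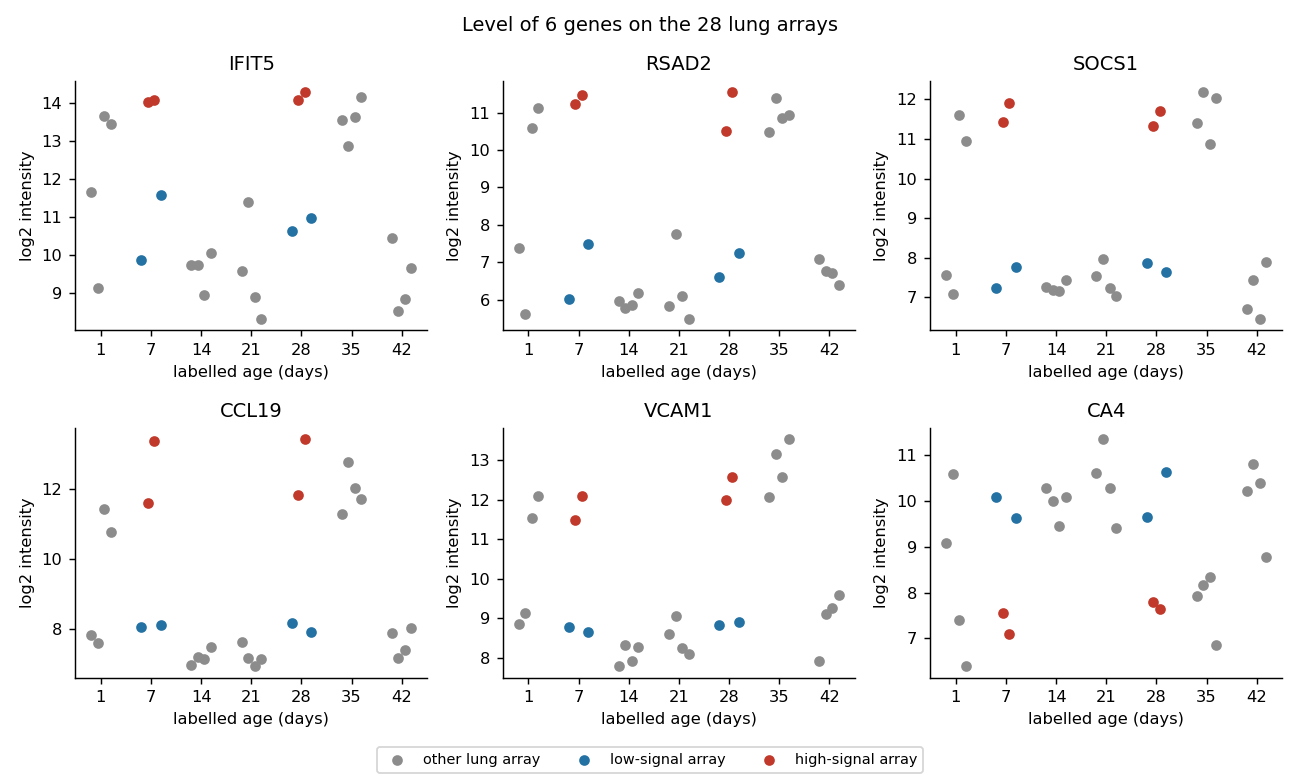
Log2 intensity of 6 genes on the 28 lung arrays by labelled age in days, with the 4 arrays of an age side by side in order of replicate number. Red points are the high-signal arrays, blue points the low-signal arrays and grey points all other lung arrays. The red points of IFIT5 lie between 14.0 and 14.3 and those of CA4 between 7.09 and 7.79, clear of the blue points in all 6 panels.

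The effectors reached similar levels at day 35. Relative to its mean on days 14 and 21, the median member stood at 2.04 and 2.32 on the high-signal arrays of day 7 and at 2.5 and 2.61 on those of day 28. It stood between 0.06 and 0.64 on the low-signal arrays, between 2.12 and 2.53 at day 35 and between −0.27 and 0.49 at day 42. Day 1 was mixed, with 0.45, 0.13, 1.86 and 2.00 on replicates 1 to 4. Days 1, 35 and 42 belong to another run of sample numbers than days 14 and 21, so levels set across the runs may differ for technical reasons. Over all genes, the median stood between −0.055 and 0.0125 on the arrays of days 7 to 28. It stood between −0.31 and −0.21 on those of days 1, 35 and 42. Within their own run, 29 of 39 effectors were called higher at day 35 than at day 42, against 1.87% of all genes, and none lower. Of these, 26 remained called when each replicate number was left out in turn, against 111 of the 234 genes called in all. IFIT5 differed there by 4.18 ± 0.59 (SE, limma, adjusted p = 2.59e-05), higher on 4 of 4 arrays. Day 42 replicate 4, the array of its age with a low HINTW reading (6.89), had an effector level of 0.06. That is 1 array of its age. Day 14 replicates 1 and 4 and day 21 replicates 3 and 4 also read low for HINTW (6.28, 7.71, 7.87 and 6.49). Their effector levels were −0.0025, 0.02, −0.09 and −0.21. The high-signal arrays and those of day 35, with raised levels, read low for HINTW as well. So did day 1 replicates 3 and 4 (6.10 and 6.60), the arrays of that age with raised levels. Day 1 replicate 1 read 6.90 and replicate 2 read 12.68. On every lung array with HINTW above 10, the effector level was at most 0.49. The part of HINTW in these levels was not tested.

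Genes of interferon induction and signalling were split, with a list median of 0.61 (0.30 without replicate 3). Against 2.4% of all genes, 14 of 33 measured members were set apart as higher, and none as lower. The ligands came first in the pathway and were faint. IFNW1, a type I interferon, read 5.31, 8.21, 5.66 and 8.07 on the high-signal arrays and 5.19 to 5.39 on the low-signal arrays. It was high on replicate 3 of each age, and at day 7 replicate 2 lay within the low-signal range, so the gene was not set apart. IFNG, the type II interferon of lymphocytes, read 5.74, 6.74, 5.62 and 5.61 against 5.25 to 5.43. At day 35 IFNW1 was called higher than at day 42 by 1.66 ± 0.37 (adjusted p = 0.0069), whereas IFNG differed by −0.14 (adjusted p = 0.902).

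Receptors and kinases showed small differences. IFNAR1 and IFNAR2, the chains of the type I interferon receptor, differed by 0.23 ± 0.29 and 0.48 ± 0.30, with overlapping classes. JAK1 and TYK2, the kinases bound to the receptor, differed by −0.39 and −0.01. The adaptor MAVS differed by −0.52, and TLR7, a sensor of single-stranded RNA in endosomes, by 0.02.

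The sensors and transcription factors that interferon itself induces were higher. IFIH1 (MDA5), the cytoplasmic sensor of long double-stranded RNA, read 11.1, 11.3, 11.4 and 11.6 against 7.65, 8.45, 7.55 and 7.63, a difference of 3.52 ± 0.21. Its relative DHX58 (LGP2) differed by 2.5 ± 0.17, TLR3, the endosomal sensor of double-stranded RNA, by 1.39 ± 0.15, and TMEM173 (STING), the adaptor of DNA sensing, by 2.10 ± 0.27. IRF7, the factor that drives type I interferon genes, read 10.5, 10.7, 10.5 and 10.9 against 8.40, 8.96, 8.46 and 8.68. IRF1 and IRF8, related factors, differed by 1.66 and 1.76. All 7 genes were set apart. At day 35, IRF7 was called higher by 2.29 ± 0.44 (adjusted p = 0.00156), whereas IRF8 was at 0.90 ± 0.42 (adjusted p = 0.323).

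The feedback inhibitor SOCS1, which blocks the JAK kinases, read 11.4, 11.9, 11.3 and 11.7 against 7.23, 7.78, 7.87 and 7.63. Its difference of 3.97 ± 0.18 was among the 5 largest of the genes set apart as higher, with a spread within each class of under 1. SOCS3, which acts mainly on cytokine receptors of the interleukin 6 family, differed by 2.10 ± 0.27. At day 35, SOCS1 was called higher by 4.50 ± 0.62 (adjusted p = 1.84e-05) and SOCS3 was not called (1.19 ± 0.45, adjusted p = 0.179). In all, 12 of 33 members of this list were called higher at day 35 and none lower, and 7 of them remained called without each replicate number. IFNW1 did not, with adjusted p up to 0.0974.

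Other genes among the 15 largest differences were GVINP1 (4.09 ± 0.17), a very large interferon-inducible GTPase by its name, and LYGL, a goose-type lysozyme relative. LYGL read 12.8, 13.4, 12.8 and 13.3 against 8.27, 9.98, 8.98 and 7.83. AVD encodes avidin, the biotin-binding protein that chicken tissues also make in inflammation. It read 12.9, 14.2, 13.4 and 13.7 against 10.6, 9.32, 11.5 and 10.0, with an appreciable spread among the low-signal arrays. NCOA7, TRANK1 and SLC25A29, the last a mitochondrial carrier of basic amino acids, differed by 3.57, 3.52 and 3.22. All 6 were also called higher at day 35, by 3.27 to 5.49.

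**Figure D2:**
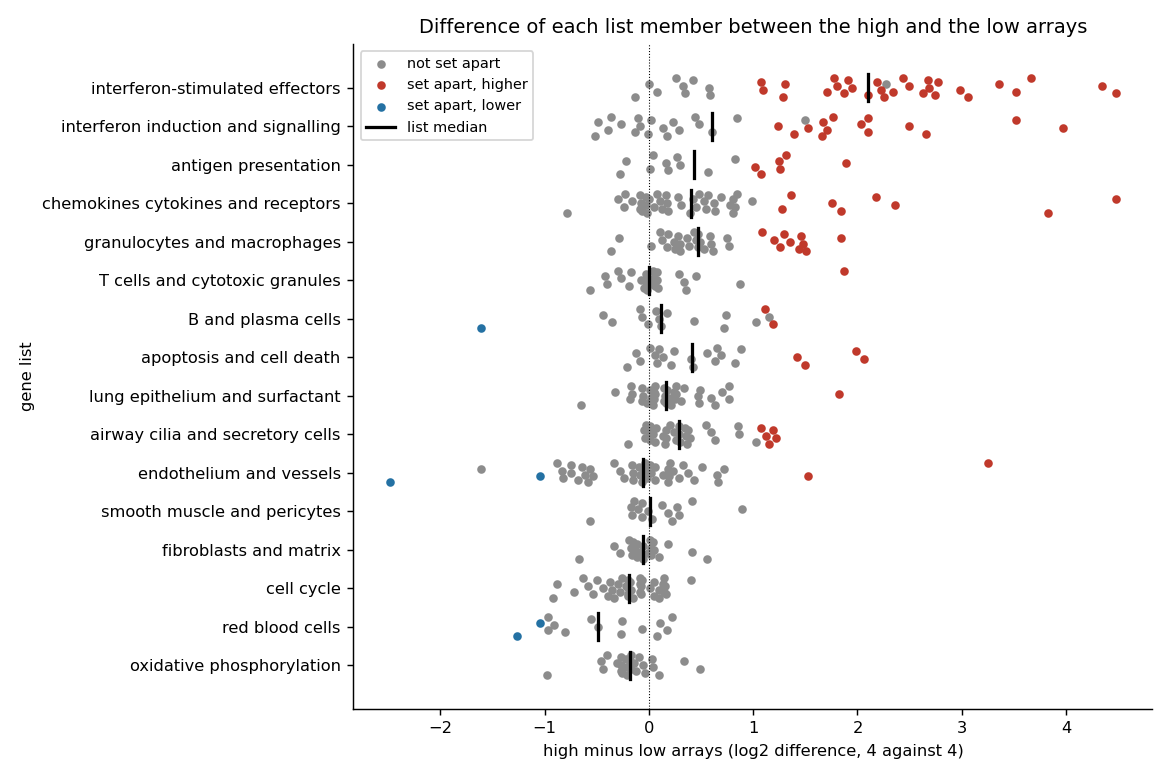
High minus low difference in log2 units (horizontal) of each measured member of 16 gene lists (vertical, with points spread for legibility). Red and blue points are members set apart as higher or lower, grey points are other members, and the black bar is the list median, at 2.10 for interferon-stimulated effectors and 0.16 for lung epithelium and surfactant.

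Antigen presentation followed in part, with 6 of 16 measured members set apart as higher, against 2.4% of all genes, and a median of 0.43. ERAP1, which trims peptides for class I molecules, differed by 1.90 ± 0.28. TAP1 and TAP2, the peptide transporter, differed by 1.31 ± 0.16 and 1.25 ± 0.22, and TAPBP, which loads peptides, by 1.02. CTSS, a protease of the class II pathway, read 12.2, 13.2, 13.1 and 13.4 against 11.9, 11.7, 11.7 and 11.5. B2M, the light chain of class I molecules, and CD74, the invariant chain of class II, were near the top of the scale and differed by 0.27 ± 0.10 and 0.18 ± 0.08. BF2, a class I heavy chain, read 10.8, 11.04, 10.9 and 11.3 against 9.37, 9.41, 11.7 and 10.3. It did not overlap at day 7 (a difference of 1.51) but did at day 28 (0.14), for 0.83 ± 0.35 over both ages. At day 35, ERAP1, TAP2, TAPBP and CTSS were called higher and TAP1 was not (adjusted p = 0.0529). Each of these 4 calls was lost when some replicate number was left out.

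The list of chemokines, cytokines and receptors also holds complement, and its median of 0.41 was 0.19 without replicate 3. Of its 46 measured members 8 were set apart as higher, against 2.4% of all genes. They were the chemokines CCL19, CCL4 and CCLL4, the complement proteases C1S and C1R, the cytokine IL18, the amino acid oxidase IL4I1 and the NF-kappaB regulator NFKBIZ. CCL19, which draws T cells and dendritic cells and was listed among the effectors too, had the largest difference of any gene with a symbol. It read 11.6, 13.4, 11.8 and 13.4 on the high-signal arrays against 8.05, 8.13, 8.16 and 7.93, a difference of 4.48 ± 0.42. Replicate 3 was above replicate 2 at both ages. CCL4, which draws monocytes and lymphocytes, showed the same order, at 9.65, 11.5, 9.12 and 11.7 against 6.32 to 7.11, and its difference of 3.83 was 2.00 as the mean of its probe sets. C1S and C1R differed by 2.36 ± 0.22 and 2.18 ± 0.33, and IL18, a cytokine that raises interferon gamma, by 1.76 ± 0.18.

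IL6, the fever cytokine, differed by −0.07 ± 0.12 and IL1B, an early inflammatory cytokine, by 0.57 ± 0.23. IL6 overlapped at day 7 and IL1B at day 28. At day 35, 8 members were called higher, among them CCL19, CCL4, C1S, C1R and IL18. CXCR4, a receptor that holds leukocytes in tissues, was called lower, by 1.40 below day 42 (adjusted p = 0.0259). Of these calls CCL19, C1S and C1R remained without each replicate number, and the other 6 did not.

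Some macrophage genes were higher and T cell receptor genes were not set apart, in bulk tissue in which fewer cells of a type and less RNA per cell cannot be told apart. Of 35 measured genes of granulocytes and macrophages, 10 were set apart as higher, against 2.4% of all genes, and none as lower. The list median was 0.47 (0.71 without replicate 1 and 0.31 without replicate 4). C1QA, C1QB and C1QC, the chains of complement C1q that macrophages make, differed by 1.44 ± 0.22, 1.30 ± 0.19 and 1.5 ± 0.30. MARCO, a scavenger receptor of macrophages, read 7.90, 9.52, 8.44 and 7.80 against 7.31, 6.86, 7.22 and 6.35. Day 7 replicate 3 was the highest of its class, and the list level showed the same, at 1.30 on that array against 0.40 to 0.61 on the other high-signal arrays. The low-signal arrays lay between −0.05 and 0.34, so the gap between the classes was small apart from that array.

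CSF1R, the receptor that macrophages need to live, overlapped at day 28 (0.25 ± 0.18), as did PTPRC (CD45), carried by leukocytes in general (0.43 ± 0.29). MRC1, the mannose receptor, differed by −0.36. The granulocyte markers LYG2, AvBD1 and CSF3R differed by 0.28, 0.12 and 0.18, and none was set apart. LY96, a partner of TLR4 in sensing endotoxin, was faint on these arrays but set apart, at 6.04, 7.30, 5.87 and 6.20 against 4.23 to 4.65. At day 35, 6 members were called higher, among them C1QA, C1QC, MARCO and LY96, and C1QB was not (adjusted p = 0.536). None of the 6 calls remained without each replicate number.

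Among 26 measured genes of T cells and cytotoxic granules, GZMA alone was set apart, a share near the 2.4% of all genes. The median difference was 0.00. GZMA encodes a protease of cytotoxic granules and read 9.00, 10.0, 9.63 and 9.72 against 6.97, 7.75, 8.65 and 7.54. GNLY, another granule protein, read 10.6 to 11.1 against 9.31 to 10.7, and its difference of 0.87 ± 0.18 was under the size required. It did not overlap within an age, as 10.3% of all genes did not in this direction. The T cell receptor chains CD3D and CD3E differed by −0.30 ± 0.22 and −0.19 ± 0.24, CD8A by 0.05 ± 0.13 and CD4 by −0.57 ± 0.18. CD4 and CD247 (−0.42 ± 0.15) were lower without overlap at either age, as were 17.5% of all genes. XCL1 was higher without overlap (0.45 ± 0.14), like GNLY. No member of the list was called between day 35 and day 42. Of 17 measured genes of the B and plasma cell list, BCL6 and PIGR were set apart as higher and BCL11A as lower. Over all genes the shares were 2.4% and 0.481%. PIGR, the receptor that carries antibodies into the airway, is also in the list of airway cells and is not particular to B or plasma cells. BCL6 differed by 1.11 ± 0.25, but by 0.71 as the mean of its probe sets and by 0.67 without replicate 3, under the size required. JCHAIN, which joins secreted antibodies, read 9.41, 11.1, 8.43 and 10.4 against 9.56, 9.75, 9.09 and 7.94, with replicate 3 above replicate 2 and overlapping classes. The B cell markers CD79B and PAX5 differed by 0.17 and −0.35 and were not set apart, though PAX5 did not overlap at either age.

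**Figure D3:**
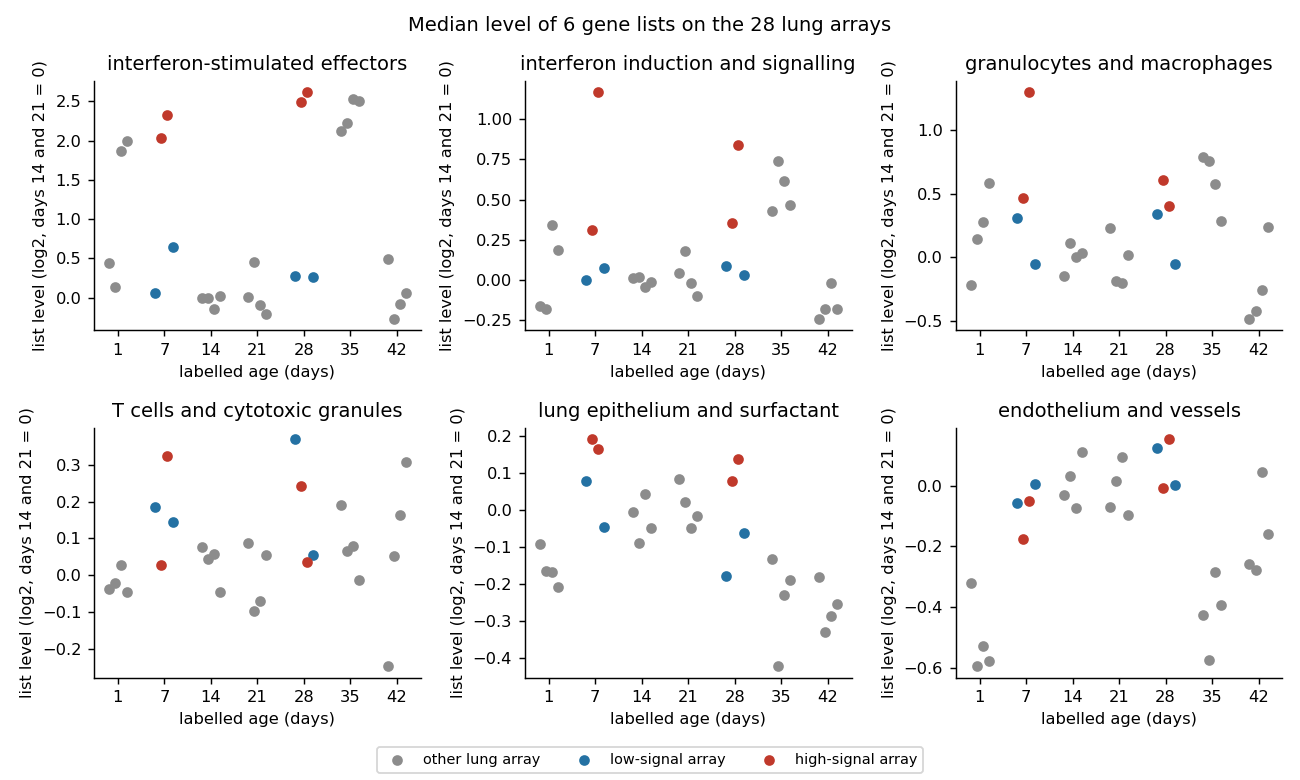
Median level of 6 gene lists on each of the 28 lung arrays by labelled age in days, in log2 units relative to each gene's mean on the 8 arrays of days 14 and 21. High-signal arrays are red, low-signal arrays blue and other arrays grey. The effector level is 2.04 to 2.61 on the red points, while epithelium and vessels stay between −0.18 and 0.19 on the red and blue points, as the narrower vertical scales show.

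Among surfactant and epithelial genes, the surfactant proteins and NKX2-1 differed little. SFTPA1 and SFTPA2, the surfactant proteins of the lung lining, differed by −0.06 ± 0.09 and 0.06 ± 0.12, and NKX2-1, the factor that defines lung epithelium, by 0.06 ± 0.12. SFTPA1 read 14.2 to 14.5 on the high-signal arrays and 14.3 to 14.4 on the low-signal ones, close to the top of the scale. Of 38 measured genes of the list, 1 was set apart, a share near the 2.4% of all genes. It was CLDN1, a tight junction protein, at 8.72, 11.2, 8.36 and 10.4 against 8.70, 8.60, 7.15 and 6.98. At day 7, replicate 2 stood only just above the low-signal arrays, and the difference of 1.83 ± 0.59 was 0.68 without replicate 3 and 2.97 without replicate 2. ST14, ELF3 and TMPRSS2 were higher by 0.70, 0.77 and 0.64, and ID2 was lower, at −0.65. These genes did not overlap at either age but fell short of the size required. At any size, 10.3% of all genes were higher and 17.5% lower without overlap at both ages. In all, 29 of the 38 differences were above 0, against 5267 of 11846 over all genes. No member was called between day 35 and day 42, CLDN1 included (0.64 ± 0.53, adjusted p = 0.65).

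Of 36 measured genes of airway cilia and secretory cells, 5 were set apart as higher, against 2.4% of all genes. The list median was 0.29 (0.15 without replicate 3). The 5 were the ciliary genes DNAH9, RSPH1, ROPN1L and CCDC40, at 1.08 to 1.22, and PIGR (1.19 ± 0.32, with 0.52 at day 7 and 1.86 at day 28), the receptor that carries antibodies into the airway. RSPH1, a radial spoke protein of cilia, read 8.78, 8.87, 7.43 and 8.96 against 8.13, 8.08, 6.44 and 6.77. The low-signal arrays of day 7 thus exceeded the high-signal day 28 replicate 2. Without replicate 3 the 4 ciliary genes differed by 0.56 to 0.80, and as the mean of their probe sets DNAH9 and CCDC40 by 0.29 and 0.58. Of the other ciliary genes, DNAI1 and CAPSL did not overlap at either age but fell short of the size required, at 0.86 ± 0.17 and 0.85 ± 0.17. At any size, 10.3% of all genes were higher without overlap at both ages. DNAH5, SPAG6 and DNAI2 were at 0.29, 0.17 and 0.16. In all, 32 of the 36 differences were above 0, against 5267 of 11846 over all genes. None of 35 members tested was called between day 35 and day 42.

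Of 48 measured vessel genes, 2 were set apart as higher and 2 as lower, against 2.4% and 0.481% of all genes, and the list median was −0.06. VCAM1 and SELE, adhesion molecules that inflamed endothelium shows to leukocytes, were higher. VCAM1 read 11.5, 12.1, 11.99 and 12.6 against 8.77, 8.65, 8.83 and 8.89, a difference of 3.25 ± 0.18 with a tight low-signal class. SELE differed by 1.53 ± 0.15.

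CA4, a carbonic anhydrase that mammalian lung capillaries carry on their surface, had the largest lower value after HINTW. It read 7.56, 7.09, 7.79 and 7.64 against 10.1, 9.63, 9.65 and 10.6, a difference of −2.48 ± 0.22, and days 14 and 21 lay with the low-signal arrays at 9.42 to 11.4. TAL1, a factor of endothelial and red cell precursors, was set apart at −1.04 ± 0.20. SOX17, a factor of arterial endothelium, differed by −1.61 ± 0.40 but overlapped, since low-signal day 7 replicate 1 read 10.0 and high-signal day 7 replicate 3 read 10.2.

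The general endothelial markers PECAM1, CDH5 and KDR were near 0. PECAM1 and CDH5, junction proteins of all endothelium, differed by −0.27 ± 0.21 and −0.09 ± 0.15, and KDR, a receptor for the growth factor VEGF, by 0.06 ± 0.12. VWF, a clotting protein of endothelium, read 10.6, 10.2, 10.5 and 10.8 against 11.4, 11.2, 11.3 and 11.2. It did not overlap but fell short of the size required, at −0.68 ± 0.13. The caveolar proteins CAV1 and CAV2 (−0.75 and −0.83) also did not overlap. GPIHBP1, another endothelial marker, went the other way, at 0.435 ± 0.12, and did not overlap either. With no requirement on size, 10.3% of all genes were higher and 17.5% lower without overlap at both ages.

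At day 35, 3 vessel genes were called higher than at day 42 and 6 lower, against 1.87% and 0.809% of all genes. VCAM1 and SELE were higher by 3.87 ± 0.52 (adjusted p = 1.27e-05) and 2.10 ± 0.45 (adjusted p = 0.00433), along with ACE, the angiotensin-converting enzyme (1.74, adjusted p = 0.0074). CA4 was lower by −2.23 ± 0.56 (adjusted p = 0.018), on 4 of 4 arrays. VWF, CAV2, SOX17, KLF2 and TEK, the last a receptor for angiopoietins, were lower by values from −1.22 to −1.77. Of these 9 calls VCAM1 and SELE remained when each replicate number was left out, and none of the 6 lower calls did (CA4 reached an adjusted p of 0.101 and VWF of 0.231). HINTW and the 6 probe sets moved with this comparison as well, and their part in it was not tested.

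Beyond these lists, the genes set apart as lower were led by TLR5, CA3B and BMP2. TLR5, the receptor for bacterial flagellin, differed by −1.91 ± 0.45, but by −1.02 as the mean of its probe sets. It read 7.11, 5.78, 6.28 and 5.50 against 8.23, 8.58, 8.79 and 6.71. Without replicate 1 the TLR5 value was −0.20, but probe sets were chosen anew in each setting. That value comes from another TLR5 probe set and does not measure the weight of replicate 1. CA3B, a carbonic anhydrase, differed by −1.64 ± 0.59, but by −0.53 without replicate 3 and −2.76 without replicate 2. BMP2, a signalling ligand of the TGF-beta family, differed by −1.64 ± 0.31. CA3B read 10.7, 7.73, 10.6 and 9.08 against 11.5, 10.9, 10.9 and 11.3, with both replicates numbered 3 the lowest. BMP2 read 9.29, 8.20, 8.95 and 8.65 against 9.50, 10.6, 10.97 and 10.5, with day 7 replicate 1 the lowest of its class. CSTA, a protease inhibitor, differed by −1.63 ± 0.28, and MYO10, a motor protein of filopodia, by −1.48 ± 0.11. As the mean of its probe sets MYO10 differed by −0.98. HINTW (−4.18) and HNRNPKL (−1.46) are also counted here and rest on the 2 low-signal arrays described above.

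Red blood cell genes were lower in part, with a list median of −0.49 (−0.27 with all probe sets averaged). Against 0.481% of all genes, 2 of 15 measured members were set apart as lower. They were TAL1, given above, and ANK1, an anchor of the red cell's membrane skeleton. ANK1 read 7.72, 7.68, 7.41 and 8.22 against 9.19, 9.06, 8.64 and 9.20, a difference of −1.26 that was −0.10 as the mean of its probe sets. The adult globin HBA1 read 13.3 to 13.85 against 14.0 to 14.1. The list level was −0.68 to −1.28 on the high-signal arrays, −0.42 to −0.50 on the low-signal arrays and −0.26 to 0.53 on days 14 and 21. No member of the red blood cell list was called at day 35.

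Markers of other organs were checked for tissue carried over at dissection. Of 12 liver and 11 skeletal muscle genes measured, none was set apart. ALB, the serum albumin made in liver, read 11.3 on low-signal day 7 replicate 1 and 6.26 to 9.10 on the other 7 arrays. At day 28 alone it read 9.10 and 8.82 on the high-signal arrays against 6.81 and 6.26. FGB read 7.30 and 7.30 there against 5.25 and 5.46, and FGG 6.95 and 6.44 against 5.64 and 5.38. At day 7 each of these genes overlapped. The liver list median was −0.30 at day 7 and 0.42 at day 28. TNNC2, a troponin of fast muscle, read 8.19 on high-signal day 28 replicate 2 and at most 5.71 on the others. Thymus, heart and squamous lists had no member set apart, and of 13 cartilage genes measured COL9A3 alone was (1.57 ± 0.21, or 0.69 as the mean of its probe sets), while COL2A1 and MATN1, which define cartilage, were not. COL9A3 was also called higher at day 35 than at day 42 (2.155 ± 0.36, limma, adjusted p = 0.000222). That call remained without each replicate number. The part of these markers in the results was not tested.

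**Figure D4:**
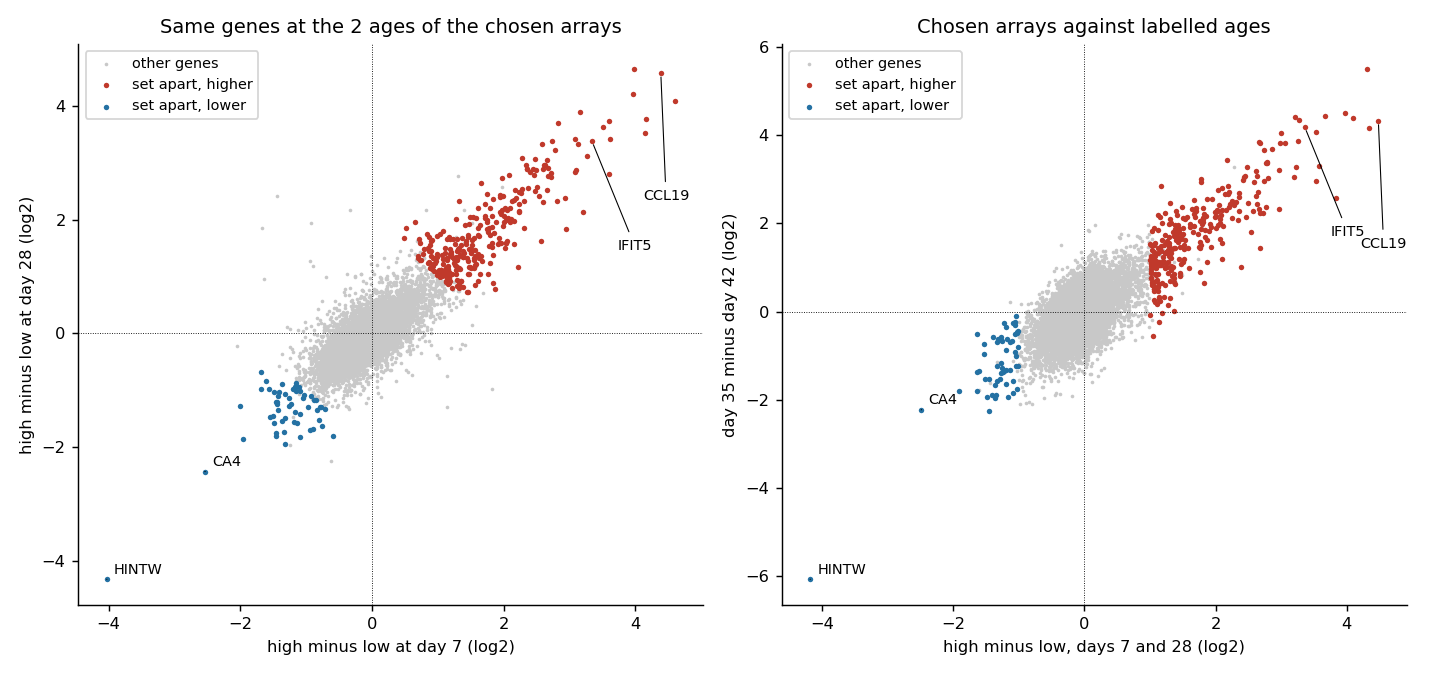
Left, the high minus low log2 difference of 11846 genes at day 7 (horizontal) and at day 28 (vertical). Right, the high minus low difference over both ages (horizontal) and the day 35 minus day 42 difference (vertical) of 11607 genes measured in both fits. Red and blue points are genes set apart as higher or lower and grey points all others. Red points lie mainly above 0 on the right, where 184 of 284 were called higher at day 35.

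The genes set apart were also followed as a whole into the arrays that the choice did not use. Of the 284 higher genes, 184 (64.8%) were called higher at day 35 than at day 42 and none lower. These 184 made up 78.6% of all genes called higher at day 35. Of the 57 lower genes, 23 (40.4%) were called lower and none higher, which was 22.8% of the genes called lower at day 35. Among all 11607 genes measured in both fits, 2.02% were called higher and 0.844% lower. The differences in the 2 sets of arrays correlated across genes at r = 0.718 (Spearman's rank correlation 0.545), again across genes that are not independent replicates. Of the 284 higher genes 19 (6.69%) lie on the Z chromosome, and of the 57 lower genes 1 (1.75%), against 4.62% of all genes.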

How the data were processed

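The deposited values are log2 intensities of probe sets, which the authors made with Affymetrix Expression Console 1.1, per the submitters' processing notes. How they normalized the arrays is not given. Of 38535 probe sets, 96 controls were left out, and 27168 with 1 gene symbol (13051 genes) were used. Probe sets whose highest mean over a labelled age lay under the 25th percentile were left out, and each gene was taken at its probe set of highest mean. Linear models (limma 3.58.1 in R 4.3.3) gave differences, standard errors and, for labelled ages alone, p-values adjusted by Benjamini and Hochberg over all genes. These measure the spread between arrays, which may be technical, and the number of arrays (4 per group) limits their precision. Scripts were tested on simulated data. Figures were drawn with matplotlib 3.10.9.

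Members and gene lists were chosen with earlier results of these data known. Named genes were the 15 largest per direction among those set apart, up to 8 per list by size and the cell type markers. Other list members were named after their values were seen. In the 23 lists a gene can occur more than once (CCL19, DHX58 and CTSS, for example). Replicate numbers, checked for pairing by correlating deviations from the age means, gave 0.451 to 0.719 at days 7 and 28, where they go with the class, and −0.166 and 0.438 within the classes. At days 35 and 42 they gave −0.01 to 0.02. The labels name no pairs. Probe sets without a gene symbol were described only where they chose the arrays, and no sequences were used here.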

Additional observations from a re-analysis of the deposited data

Results flagged for a closer look

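Within the 4 arrays of a labelled age, 1 array stood far from the other 3 in several genes, and chance alone flags about 1 in 20 such groups. Genes and list levels were scanned at 2 ages, and 252 genes were named, so many of the flags below may be chance. None of them was tested. The interferon IFNW1 read 8.21 on day 7 replicate 3, against 5.31 to 5.39, and 8.07 on day 28 replicate 3, against 5.19 to 5.66. HINTW read 13.7 on day 7 replicate 1 and 13.82 on day 28 replicate 4, and its W-linked companion in these data, HNRNPKL, read 8.09 and 9.36 on the same arrays. Day 7 replicate 3 also stood apart in CLDN1 (11.22, against at most 8.72), in ELN (7.61, against 8.68 or more) and in HSPA2 (11.55, against 11.97 or more). Its list levels of B and plasma cells and of airway cilia were 0.45 and 0.56. Day 7 replicate 1 read 7.90 for the liver gene FGG, day 7 replicate 4 read 5.87 for CASQ2 and 6.96 for NDUFS3, and day 7 replicate 2 read 5.69 for KRT13, 6.07 for MYBPC3 and 8.76 for PIGR.

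At day 28, replicate 2 stood apart in the muscle genes TNNC2 (8.19), MYH1B (7.25) and ACTN2 (7.16), with a skeletal muscle list level of 0.26. The same array read 14.15 for HSPA8, 12.35 for HBAD and 11.34 for PECAM1 (against 12.22 or more), and its B and plasma cell level was 0.33. Replicate 3 read 6.73 for MCM5 and had an oxidative phosphorylation level of −0.39, and replicate 1 read 8.82 for AGR2 (against 9.86 or more). Genes whose classes did not overlap but lay in opposite order at the 2 ages were AHSG (−0.42 at day 7, 0.21 at day 28), CCR9 (−0.23 and 0.18), LYVE1 (−0.41 and 0.79) and TYK2 (0.11 and −0.13), and these differences between ages were not tested.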

How the results depend on the processing

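Dim signal and 2 arrays per class and age limit the values. The count of genes set apart as lower was 30 with probe sets averaged per gene, 95 at day 7 alone and 102 at day 28 alone. For an age alone, no overlap was required at that age only, a laxer criterion than for the main counts. At a difference of 0.5, 638 higher and 664 lower genes passed. Leaving out each replicate number in turn gave 210 to 469 higher and 55 to 211 lower genes. Each of these settings left fewer arrays in a class, which makes no overlap easier to reach. For day 35 against day 42, the lower calls were 51 with probe sets averaged, and leaving out replicates gave 145 to 215 higher and 27 to 83 lower calls, and the replicate block 237 and 100. The day 28 against day 7 count was 0 throughout, the replicate block included, and the block left the counts set apart at 284 and 57.

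The effector median was 1.63 with probe sets averaged and 1.77 without the arrays of high HINTW, an alternative chosen after seeing the data. At the 50th percentile filter medians were 0.70 for antigen presentation, 0.46 for liver, 0.12 for cartilage, −0.19 for thymus, −0.36 for heart (1 gene) and 0.56 for cell death. Cell death was at 0.38 with probe sets averaged and with array weights, 0.34 without the arrays of high HINTW, 0.46 at day 7 and 0.37 at day 28. Cartilage was at 0.0175 with centred arrays, 0.06 without the arrays of high HINTW, 0.13 at day 7 and 0.09 at day 28. Skeletal muscle was at 0.40 without the arrays of high HINTW. By age alone, medians were 0.10 and 0.23 for epithelium, −0.30 and 0.42 for liver, −0.38 for the cell cycle and −0.21 for thymus (day 7), and 0.11 for fibroblasts and 0.14 for stress (day 28). Leaving out each replicate number gave ranges of 1.86 to 2.27 for effectors, 0.15 to 0.42 for cilia, −0.32 to −0.0075 for the cell cycle, 0.13 to 0.42 for stress, 0.32 to 0.54 for cell death, −0.10 to 0.27 for liver, 0.07 to 0.30 for skeletal muscle, 0.05 to 0.13 for cartilage, −0.12 to 0.05 for thymus and 0.0475 to 0.19 for heart. Every other list median moved by less than the spread between arrays, and the causes of these shifts were not tested.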

Other observations

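Cell death genes differed in the direction of the interferon response. Of 22 measured members 4 were set apart as higher, against 2.4% of all genes, and the list median was 0.41. PMAIP1 (NOXA), which opposes survival proteins at the mitochondrion, read 7.22, 7.95, 7.35 and 7.97 on the high-signal arrays (day 7, then day 28) against 5.39 to 5.75 on the low-signal arrays. APAF1, the scaffold that activates caspases, differed by 1.99 ± 0.18. The survival genes BIRC2 and BCL2A1 were set apart in the same direction (1.5 ± 0.21 and 1.42 ± 0.19), so members that promote and members that oppose death were both higher. PMAIP1 and APAF1 were called higher at day 35 than at day 42 (adjusted p = 0.0223 and 0.00212), and the call of APAF1 remained without each replicate number.

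No gene of the cell cycle or of oxidative phosphorylation was set apart. The median of 40 cell cycle genes was −0.19 (−0.0075 without replicate 3 and −0.0225 at day 28 alone, against −0.035 over all genes), and the largest differences were those of E2F1 and CCND1, which drive entry into division, at −0.92 ± 0.26 and −0.88 ± 0.17. The cell cycle level was −0.16 to 0.18 on the high-signal and −0.05 to 0.46 on the low-signal arrays, inside the range of days 14 and 21 (−0.45 to 0.57). The median of 25 genes of oxidative phosphorylation was −0.18, with −0.0575 without replicate 3 and −0.335 without replicate 2. Smooth muscle (16 genes) and fibroblasts (23 genes) had medians of 0.01 and −0.06 and no member set apart. Of 25 stress genes 1 was set apart as higher, against 2.4% of all genes. None of these 5 lists but stress (1 gene, HMOX1) had a call between day 35 and day 42.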
